A study of Mus musculus with 8 samples.

Results

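Axon guidance ligands and receptors were examined in lung endothelial cells (ECs) of neonatal mice reared in normoxia or hyperoxia. The set held every protein-coding gene of the deposited count table whose symbol named a semaphorin of classes 3 to 7, a plexin, an ephrin, an Eph receptor, a Slit, a Robo, a netrin or an Unc5 receptor, 65 of 54532 genes in all. Members were taken by gene symbol, and the rule uses no measured value, although the set was chosen with earlier results of these data known. All animals were wild-type (WT). The 4 normoxia libraries came from pups kept in room air (21% O2), and the 4 hyperoxia libraries came from pups kept at 80% O2 from postnatal day 0 to day 14, when lungs were taken. Per the study's methods, CD45-positive leukocytes were first depleted from the lung cell suspension, and ECs were then bound to beads carrying an antibody to CD31, a surface protein of ECs that platelets and some leukocytes also bear. The number of pups in each library, their litters and their sex were not given in the labels, nor whether the numbered libraries came from separate animals, so p-values measure only the spread between these samples.

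The 4 ligand families and their receptors are best known for steering growing axons and are also used by blood vessels. Semaphorins act on plexins, and the secreted class 3 semaphorins mostly reach plexins through the co-receptors neuropilin 1 and neuropilin 2, which also bind vascular endothelial growth factor. Ephrins and Eph receptors both sit on cell membranes and signal in both directions where cells touch, with ephrin-B2 marking arterial and EphB4 venous ECs. Slits are secreted ligands of Robo receptors, of which Robo4 is largely restricted to ECs. Netrins are laminin-related secreted proteins, and their receptors are the Unc5 proteins, of which Unc5b is found on arterial and sprouting ECs, and the receptors Dcc and neogenin.

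Libraries held 16098086 to 18300730 counts, of which the 65 genes together took 0.873% to 1.01%. As a check of the EC label, Cdh5, the gene of VE-cadherin, lay at 4121 ± 175 CPM in normoxia and at 4035 ± 139.7 CPM in hyperoxia (SD, n = 4 each), where CPM is the count of a gene scaled to a common library total after TMM normalization. The summed level of 18 endothelial markers was 26202 to 27575 CPM in normoxia and 25392 to 27603 CPM in hyperoxia. Single markers of this list moved both ways, with 5 higher, 5 lower and 8 not past the threshold used below. The log2 fold change was -0.79 for Tek and 0.77 for Cd34. Markers of EC subtypes moved along with the group. Of 12 markers each, 9 were lower and 1 higher for general capillary ECs (median log2 fold change -0.55) and 10 were higher and 1 lower for aerocyte capillary ECs (0.82). Of 8 lymphatic EC markers 6 were higher. The largest rise of these was that of the scarce Pdpn (1.14 and 6.31 CPM, log2 fold change 2.47), whose lowest hyperoxia library was hyperoxia 3. In contrast, hyperoxia 3 was the highest of its group for Prox1, Lyve1, Flt4 and Mmrn1, which were also higher. For Reln, also higher, it lay between. Whether these rises came from lymphatic ECs was not tested. RNA of other lung cells was also counted. Of 22 alveolar epithelial markers 21 were higher in hyperoxia and none were at 0, with summed levels of 489 to 654 CPM in normoxia against 1153 CPM in hyperoxia 3 and from 2833 up to 3255 CPM in the remaining hyperoxia libraries. Of 12 tested mural and myofibroblast markers 9 were higher, with sums of 65.4 to 129.9 CPM in normoxia, 144 CPM in hyperoxia 3 and from 198 up to 287 CPM in the remaining ones. Fibroblast markers were higher for 7 of 13 tested, and their sums (2085 to 2453 and 2452 to 3217 CPM) came mostly from Macf1, a broadly expressed cytoskeletal linker. None of these 3 lists had a lower member. The share of mitochondrial counts was also higher in hyperoxia, 1.21% to 1.43% against 0.864% to 1.05%. The part of all of these in the results below was not tested, and fits with marker covariates are given as values only.

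Hyperoxia was accompanied by higher counts of every tested Robo and Unc5 receptor and of several semaphorins, plexins and Eph receptors, and by lower counts of 3 ephrins. Of the 65 genes, 57 passed the filter on low counts and entered edgeR's quasi-likelihood test. At a Benjamini-Hochberg adjusted p under 0.05 over all 15564 genes tested, 35 were past the threshold (against 35.6% of all genes tested), of which 26 were higher in hyperoxia (45.6% of those tested, against 18.5% of all genes) and 9 were lower (15.8%, against 17.1%), while 22 were not past it. When a log2 fold change of 1 or more in either direction was also required, 12 guidance genes were called higher and 1, Sema6c, was called lower. These 13 made 22.8% of the tested members, against 6.98% of all genes tested (5.62% higher and 1.36% lower). They include Sema4f and Epha7, which passed the filter on low counts only through their hyperoxia libraries. The median log2 fold change (log2FC, hyperoxia relative to normoxia) was 0.28 over the 57 genes and 0.00 over all genes tested. All 4 hyperoxia libraries lay above all 4 normoxia libraries for 22 of the 57 genes and below them for 7 of the 57. Among the 15564 genes tested, these counts were 2766 (17.8%) and 2747 (17.6%). In a bulk sample, fewer cells of a type and less RNA per cell cannot be told apart.

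Ligands and receptors were also counted apart, as 4 families each. Of 33 tested ligands 11 were higher and 9 lower, whereas of 24 tested receptors 15 were higher and none were lower. This split was made after the values were seen and was not tested. The count of lower receptors was 1 with upper-quartile factors, with DESeq2, with the replicate number as a block, and without normoxia 1, normoxia 3 or hyperoxia 3, and 2 without the filter on low counts. Semaphorins divided into 9 higher and 4 lower of 20. Among ephrins, 3 of 8 were lower, and none were higher under any setting tried.

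**Figure D1:**
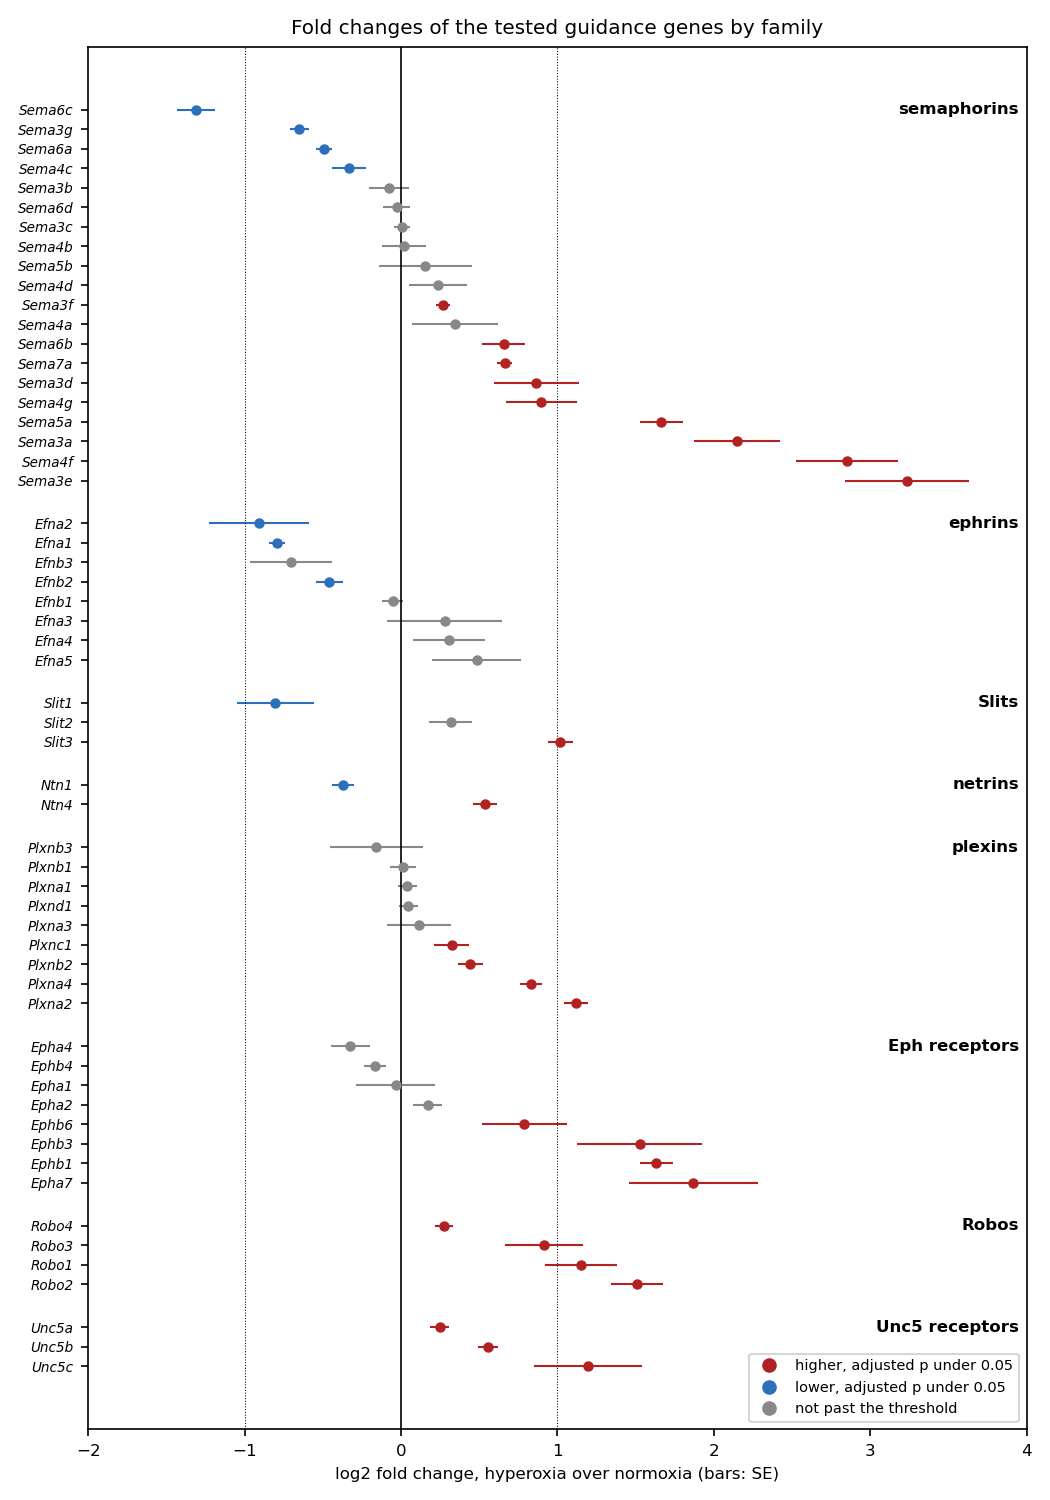
Log2FC of each of the 57 tested guidance genes, hyperoxia over normoxia, grouped by family, with bars of 1 standard error and dotted lines at a log2FC of 1 in either direction. Points of the Robos and Unc5 receptors all lie to the right of 0, those of the 3 called ephrins lie to the left, and Sema3e at 3.23 is the farthest point from 0.

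The stretch upstream of the start of 6 genes is shown so that the promoters of genes that rose can be set beside those of abundant genes that fell. Sema5a, Plxna2, Ephb1 and Slit3 rose past the fold threshold, averaged 10 CPM or more and have 1 promoter entry each, and Sema3g and Efnb2 are abundant genes that fell. They were picked after their values were seen. The 250 bases before the start in RefSeq (GRCm38.p6) are given 5′ to 3′ on the strand of the gene, and capitals mark matches on either strand to any motif searched. The motifs, searched on both strands, were TGACNNNGC (the core of the antioxidant response element), ACGTG (the core of the hypoxia response element), GTGGGAA (bound by RBPJ, the Notch effector), GGGCGG (the Sp1 site) and the p53 half-site consensus.
Sema5a, chr15:32244563-32244812, plus strand: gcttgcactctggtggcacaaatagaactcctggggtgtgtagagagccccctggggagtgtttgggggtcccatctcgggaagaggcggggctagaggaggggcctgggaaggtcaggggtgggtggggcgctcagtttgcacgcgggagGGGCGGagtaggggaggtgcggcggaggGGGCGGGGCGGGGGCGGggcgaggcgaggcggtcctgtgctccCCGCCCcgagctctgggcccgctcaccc
Plxna2, chr1:194619579-194619828, plus strand: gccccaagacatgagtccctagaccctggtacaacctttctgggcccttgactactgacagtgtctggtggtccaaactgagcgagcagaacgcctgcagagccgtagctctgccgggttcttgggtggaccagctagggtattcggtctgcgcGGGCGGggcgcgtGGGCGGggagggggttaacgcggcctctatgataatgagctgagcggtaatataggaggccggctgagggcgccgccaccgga
Ephb1, chr9:102354694-102354943, minus strand: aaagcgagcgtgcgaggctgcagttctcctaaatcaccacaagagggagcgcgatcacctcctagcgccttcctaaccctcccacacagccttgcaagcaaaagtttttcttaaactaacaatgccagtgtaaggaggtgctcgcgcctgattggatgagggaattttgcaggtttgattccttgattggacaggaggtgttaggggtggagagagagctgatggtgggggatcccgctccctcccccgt
Slit3, chr11:35121206-35121455, plus strand: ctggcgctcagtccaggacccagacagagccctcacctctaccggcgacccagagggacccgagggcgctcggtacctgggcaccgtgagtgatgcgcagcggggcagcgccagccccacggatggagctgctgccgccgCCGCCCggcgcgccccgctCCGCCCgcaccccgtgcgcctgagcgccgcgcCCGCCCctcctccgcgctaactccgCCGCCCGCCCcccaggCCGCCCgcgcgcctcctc
Sema3g, chr14:31217623-31217872, plus strand: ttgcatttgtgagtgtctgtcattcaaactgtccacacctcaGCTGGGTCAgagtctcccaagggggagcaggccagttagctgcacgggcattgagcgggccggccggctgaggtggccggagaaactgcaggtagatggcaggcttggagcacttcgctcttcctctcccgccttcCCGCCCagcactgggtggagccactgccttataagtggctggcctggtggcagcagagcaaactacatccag
Efnb2, chr8:8661243-8661492, minus strand: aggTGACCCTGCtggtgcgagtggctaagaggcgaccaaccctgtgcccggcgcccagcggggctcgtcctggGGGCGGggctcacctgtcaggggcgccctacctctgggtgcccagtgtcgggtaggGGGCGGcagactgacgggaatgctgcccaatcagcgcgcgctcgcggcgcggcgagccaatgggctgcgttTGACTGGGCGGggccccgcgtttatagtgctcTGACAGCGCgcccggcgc

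The promoters of these 6 genes shared no single motif. GGGCGG was found 5 times upstream of Sema5a, 2 times upstream of Plxna2, 6 times upstream of Slit3, 1 time upstream of Sema3g and 3 times upstream of Efnb2. No searched motif was found upstream of Ephb1. TGACNNNGC was found 3 times upstream of Efnb2, where 1 match overlaps a GGGCGG match, and 1 time upstream of Sema3g. Among 32851 mouse promoters of the same length, GGGCGG was found in 32.7%, TGACNNNGC in 10.2%, ACGTG in 16.6%, GTGGGAA in 5.42% and the p53 half-site consensus in 7.13%. Promoters were listed for 56 of the 65 genes. Counted per promoter in the same way, GGGCGG was in 19 of 29 promoters of higher members, 8 of 9 of lower members and 19 of 27 of members not past the threshold. TGACNNNGC was in 2, 2 and 4 of these, ACGTG in 5, 0 and 6, GTGGGAA in 3, 0 and 0, and the p53 half-site consensus in 1, 0 and 3. None of these shares was tested. These are matches of letters and not measured binding. The RefSeq start of Plxna2 lies 1611 bases from the start in the deposited table, and that of Slit3 lies 232 bases away, so the stretch printed for these genes is the promoter of another transcript start.

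Among the secreted class 3 semaphorins, the scarce Sema3e, Sema3a and Sema3d rose. Sema3e (ENSMUSG00000063531, chromosome 5, 14025276 to 14256689, GRCm38), which binds plexin D1 directly and repels ECs, was counted at 2.14, 1.31, 1.62 and 1.38 CPM in normoxia and at 21.2, 17.1, 5.15 and 17.3 CPM in hyperoxia. The hyperoxia libraries lay above all normoxia libraries, and hyperoxia 3 was the lowest of the 4. The log2FC was 3.23 (SE 0.399), or 9.41-fold (adjusted p = 0.000135). Sema3a (ENSMUSG00000028883, chromosome 5, 13125414 to 13602565), a neuropilin 1 ligand that inhibits EC migration, was counted at 4.04, 2.62, 3.52 and 2.26 CPM in normoxia. In hyperoxia it was counted at 18.6, 14.3, 7.50 and 14.6 CPM, again without overlap and with hyperoxia 3 lowest. Its log2FC was 2.15 (SE 0.275, adjusted p = 0.00017). Both genes were lowest in hyperoxia 3 within their group, as the alveolar epithelial markers and the summed aerocyte markers were. With the mean level of the alveolar epithelial markers in the model the log2FC was -0.12 (SE 0.366) for Sema3e and 0.05 (SE 0.359) for Sema3a. With the fibroblast and mural markers instead it was 1.55 (SE 0.495) and 1.13 (SE 0.372), not past the threshold for either gene. Neighbouring Sema3d on the same chromosome (12383385 to 12588948) was higher with a log2FC of 0.86 (adjusted p = 0.0294), a call that was lost without normoxia 2, normoxia 4, hyperoxia 2, hyperoxia 3 or hyperoxia 4 (adjusted p of 0.0513 to 0.087).

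The abundant class 3 semaphorins moved little or fell. On the length-scaled FPKM scale, on which levels of different genes can be compared, Sema3g was the most abundant guidance gene, at 225 ± 13.8 FPKM in normoxia and 144 ± 9.41 FPKM in hyperoxia (SD, n = 4 each). Sema3g (ENSMUSG00000021904, chromosome 14, 31217860 to 31230352), a neuropilin 2 ligand made by arterial ECs, was counted at 1026, 1047, 949 and 1103 CPM in normoxia and at 617, 652, 715 and 643 CPM in hyperoxia. Every hyperoxia library lay below every normoxia library, and the log2FC was -0.65 (SE 0.0605, adjusted p = 1.91e-05). Sema3c (ENSMUSG00000028780, chromosome 5, 17574281 to 17730268), which acts on ECs and on outflow tract cells of the heart, was next in level at 179.5 ± 5.78 and 181 ± 11.1 FPKM, and the order of Sema3g and Sema3c was reversed in hyperoxia. It was counted at 1259, 1309.8, 1255 and 1345 CPM in normoxia and at 1210.5, 1390.7, 1323 and 1276 CPM in hyperoxia. These values overlapped, and the 95% confidence interval of the log2FC ran from -0.11 to 0.12. Sema3f, a neuropilin 2 ligand, was slightly higher (99.1 ± 4.23 and 119.9 ± 3.58 FPKM, log2FC 0.27, adjusted p = 0.000998), and Sema3b was not past the threshold (log2FC -0.08, adjusted p = 0.672).

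Membrane-bound semaphorins went both ways. Sema5a (ENSMUSG00000022231, chromosome 15, 32244810 to 32696341), a transmembrane semaphorin with thrombospondin repeats, was counted at 14.7, 23.2, 19.6 and 22.8 CPM in normoxia and at 52.6, 64.3, 67.5 and 70.8 CPM in hyperoxia. The groups were well apart, the log2FC was 1.67 (SE 0.137, adjusted p = 7.99e-06), and hyperoxia 3 was not the lowest library. Sema7a (ENSMUSG00000038264, chromosome 9, 57940112 to 57962865), a lipid-anchored semaphorin that binds integrins and plexin C1, was counted at 269, 267, 277 and 274 CPM in normoxia. In hyperoxia it was counted at 447, 409.0, 456 and 409.8 CPM, all above normoxia, with a log2FC of 0.66 (SE 0.0488, adjusted p = 3.71e-06). Sema6c (ENSMUSG00000038777, chromosome 3, 95160457 to 95174024), a transmembrane ligand of A-type plexins, was counted at 18.4, 20.03, 15.1 and 18.2 CPM in normoxia and at 6.11, 7.31, 8.36 and 7.16 CPM in hyperoxia. It was the only guidance gene that fell past the fold threshold (log2FC -1.31, SE 0.122, adjusted p = 1.92e-05).

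Among the other membrane-bound semaphorins, Sema6a (404 ± 22.4 and 287 ± 11.3 CPM, adjusted p = 4.57e-05), which binds plexins A2 and A4, was lower and Sema6b (23.7 ± 3.88 and 37.3 ± 5.98 CPM, adjusted p = 0.00358) was higher. Sema4f had the second largest log2FC of the set, 2.85 (SE 0.324, adjusted p = 7.53e-05), but was counted at 0.229 ± 0.0802 CPM in normoxia and at 1.70 ± 0.305 CPM in hyperoxia, 136 counts in all 8 libraries together. Sema4g was higher with a log2FC of 0.90 (adjusted p = 0.0104). Sema4c, a ligand of plexin B2, was lower by a log2FC of -0.33 (adjusted p = 0.0345). That call was lost when any of normoxia 2, normoxia 4, hyperoxia 1, hyperoxia 2 or hyperoxia 4 was left out (adjusted p of 0.0561 to 0.0906), and 7.27% of its exon bases overlap a transcript on the other strand. Sema4a, Sema4b, Sema4d, Sema5b and Sema6d were not past the threshold.

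**Figure D2:**
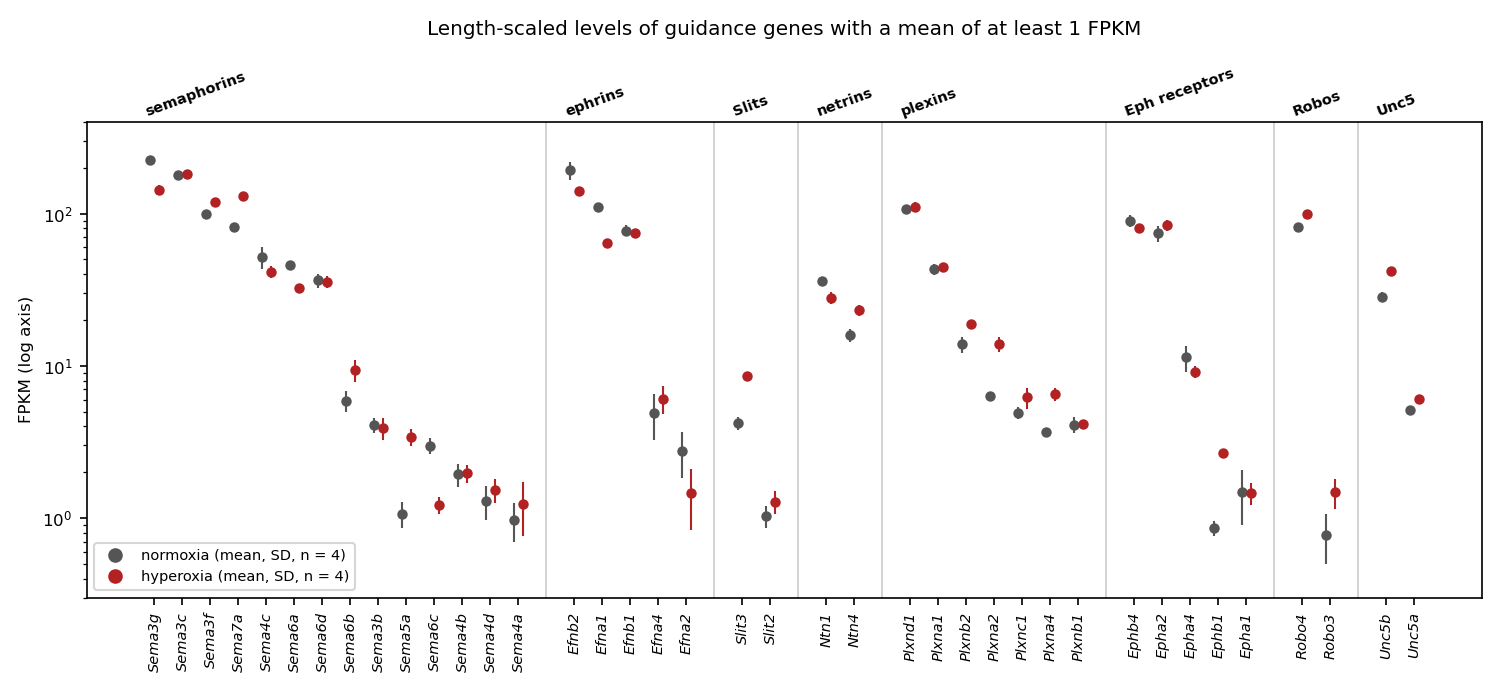
FPKM (log axis) of the guidance genes with a mean of at least 1 FPKM, by family and in order of level, as mean and SD of the 4 normoxia (grey) and 4 hyperoxia (red) libraries. Sema3g falls from 225 to 144 FPKM and so below Sema3c, the Robo4 and Unc5b points lie higher in hyperoxia, and Plxnd1 stays between 107 and 111 FPKM.

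No ephrin was higher in hyperoxia, and the summed level of the 8 was 389.8 ± 33.0 FPKM in normoxia and 289 ± 10.4 FPKM in hyperoxia (SD, n = 4 each). Most of this sum came from Efnb2, Efna1 and Efnb1. Efnb2 (ENSMUSG00000001300, chromosome 8, 8617434 to 8661242), the gene of ephrin-B2, was counted at 1188, 1539, 1164 and 1425 CPM in normoxia and at 919, 999, 985 and 966 CPM in hyperoxia. All hyperoxia libraries lay below all normoxia libraries, although normoxia 2 and normoxia 4 stood above the other two of their group. The log2FC was -0.46 (SE 0.0856, adjusted p = 0.00189). Efna1, an ephrin induced by tumour necrosis factor and the main ligand of EphA2, fell from 204 ± 4.85 to 118 ± 7.46 CPM (log2FC -0.79, SE 0.0509, adjusted p = 1.66e-06). Efnb1 lay at 77.3 ± 6.55 and 74.8 ± 4.19 FPKM, and its log2FC of -0.05 had a 95% confidence interval of -0.20 to 0.09. Efna2, at 5.89 ± 1.96 and 3.14 ± 1.36 CPM, was just past the threshold (log2FC -0.91, adjusted p = 0.0486) and was not past it in 6 of the 8 fits that left out 1 library, with an adjusted p of up to 0.126 without hyperoxia 2. Efnb3 (adjusted p = 0.0608), Efna3, Efna4 and Efna5 were not past it, and for Efna3 and Efna4, which lie beside Efna1 on chromosome 3 (89271733 to 89338028), 14.1% and 10.5% of exon bases overlap an antisense gene.

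The secreted ligands of the Slit and netrin families changed member by member. Slit3 (ENSMUSG00000056427, chromosome 11, 35121224 to 35708507) was the most abundant Slit, at 4.20 ± 0.443 FPKM in normoxia and 8.53 ± 0.542 FPKM in hyperoxia. Its counts were 28.4, 25.0, 22.3 and 27.2 CPM in normoxia and 53.4, 55.4, 51.5 and 47.8 CPM in hyperoxia, without overlap. The log2FC was 1.02 (SE 0.0794, adjusted p = 5.68e-06). Slit2 lay at 26.3 ± 4.24 and 32.7 ± 5.56 CPM with an adjusted p of 0.0943, and Slit1, at 1.66 ± 0.257 and 0.946 ± 0.216 CPM, was lower (log2FC -0.80, adjusted p = 0.0261). The Slit1 call was lost without normoxia 2, normoxia 4, hyperoxia 1 or hyperoxia 3 (adjusted p of 0.0605 to 0.0748). Ntn1 (ENSMUSG00000020902, chromosome 11, 68209364 to 68400823), the gene of netrin 1, was counted at 239.8, 235, 210.2 and 228 CPM in normoxia and at 157, 177, 196 and 177 CPM in hyperoxia. The groups did not overlap, and hyperoxia 3 lay nearest to normoxia (log2FC -0.37, SE 0.0692, adjusted p = 0.0019). Ntn4, whose product is a component of basement membranes, moved the other way, from 60.1 ± 5.51 to 87.1 ± 6.79 CPM (log2FC 0.54, adjusted p = 0.000326).

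Plexins, the signalling receptors of semaphorins, were higher for 4 of 9 members and lower for none. Plxna2 (ENSMUSG00000026640, chromosome 1, 194618218 to 194816869), a receptor of class 6 semaphorins and of class 3 semaphorins bound to neuropilins, was counted at 110.0, 115, 102 and 114 CPM in normoxia and at 201, 251, 249.9 and 256 CPM in hyperoxia. The groups were far apart, with a log2FC of 1.12 (SE 0.077, adjusted p = 2.39e-06). Plxna4, a close relative with shared ligands, was higher with a log2FC of 0.83 (SE 0.0687, adjusted p = 8.3e-06), and Plxnb2, a receptor of class 4 semaphorins, with 0.44 (adjusted p = 0.00148). Plxnc1, a receptor of Sema7a, was just past the threshold (log2FC 0.32, adjusted p = 0.0435). It was not past it in 6 of the 8 fits that left out 1 library, with the highest adjusted p, 0.109, without normoxia 1. Plxnd1 (ENSMUSG00000030123, chromosome 6, 115954811 to 115995005), the EC receptor of Sema3e, was the most abundant plexin, at 107 ± 6.01 and 111 ± 7.73 FPKM. It was counted at 802, 821, 722 and 809.8 CPM in normoxia and at 734, 829, 857 and 838 CPM in hyperoxia. These values overlapped, and the 95% confidence interval of the log2FC ran from -0.09 to 0.18. Plxna1, Plxna3, Plxnb1 and Plxnb3 were not past the threshold, with log2FC values between -0.16 and 0.11. The neuropilins, which are not members of the set, were both higher. Nrp1 rose from 818 ± 25.7 to 912 ± 27.4 CPM (log2FC 0.16, adjusted p = 0.0176) and Nrp2 from 53.2 ± 4.41 to 91.1 ± 10.5 CPM (log2FC 0.78, adjusted p = 7.63e-05).

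Eph receptors, tyrosine kinases that bind ephrins, were higher for 4 of 8 tested members, all of them at low levels. Ephb1 (ENSMUSG00000032537, chromosome 9, 101922128 to 102354693) was counted at 6.001, 6.20, 6.82 and 5.19 CPM in normoxia and at 19.8, 19.1, 17.1 and 19.3 CPM in hyperoxia. Both groups were narrow and separate, with a log2FC of 1.63 (SE 0.104, adjusted p = 1.57e-06). Ephb3 (ENSMUSG00000005958, chromosome 16, 21204755 to 21223305) was counted at 2.08, 1.37, 1.01 and 0.552 CPM in normoxia and at 3.77, 4.70, 1.66 and 4.22 CPM in hyperoxia. Hyperoxia 3 lay among the normoxia libraries, and the log2FC was 1.53 (SE 0.398, adjusted p = 0.0122). With the alveolar epithelial markers in the model it was -1.22 (SE 0.783), and with the fibroblast and mural markers -0.20 (SE 0.399). Epha7 was higher with a log2FC of 1.87 (adjusted p = 0.00481) on 100 counts in all 8 libraries together. With the alveolar epithelial markers in the model its log2FC was 0.05 (SE 0.889), and with the fibroblast and mural markers 1.15 (SE 0.762). Ephb6, a member without kinase activity, was just past the threshold (log2FC 0.79, adjusted p = 0.043) and not past it in 5 of the 8 fits that left out 1 library, with an adjusted p of up to 0.114.

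The Eph receptors that ECs expressed most were not past the threshold. Ephb4 (ENSMUSG00000029710, chromosome 5, 137350109 to 137378669), the venous receptor of ephrin-B2, was the most abundant Eph receptor, at 89.6 ± 7.77 FPKM in normoxia and 80.1 ± 5.77 FPKM in hyperoxia. It was counted at 471, 414, 392 and 398 CPM in normoxia and at 349.6, 374, 409.6 and 361 CPM in hyperoxia. Hyperoxia 3 lay among the normoxia libraries, and the log2FC was -0.17 (SE 0.069, adjusted p = 0.0867). Without hyperoxia 3 the log2FC was -0.21 and the adjusted p 0.0355. Epha2, an ephrin-A1 receptor, lay at 74.1 ± 9.37 and 83.6 ± 7.29 FPKM (adjusted p = 0.179) and Epha4 at 11.4 ± 2.21 and 9.12 ± 0.850 FPKM (adjusted p = 0.0642). Epha4 passed the threshold with DESeq2 (adjusted p = 0.0341). The log2 ratio of Efnb2 to Ephb4 in CPM was 1.34, 1.89, 1.57 and 1.84 in normoxia and 1.39, 1.42, 1.27 and 1.42 in hyperoxia. The mean log2 ratio was 1.66 ± 0.258 and 1.37 ± 0.0730 (SD, n = 4 each), but the groups overlapped. Other arterial markers gave 1 higher and 4 lower of 12, and venous markers gave 7 higher and none lower of 9 tested. The venous list includes Apln, its only gene past the fold threshold (log2FC 1.51), which is also counted among the aerocyte markers.

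Robo receptors were higher for all 4 members, although none of the 4 passed the threshold with the alveolar epithelial markers in the model. With the fibroblast and mural markers instead, Robo2 (adjusted p = 0.0308), Robo3 (0.0434) and Robo4 (0.0395) passed it and Robo1 (0.543) did not. Robo4 (ENSMUSG00000032125, chromosome 9, 37401897 to 37415115), the EC member that stabilises vessels, was by far the most abundant of the 4, at 81.5 ± 4.33 and 99.1 ± 6.61 FPKM. It was counted at 413, 439, 424 and 467 CPM in normoxia and at 491, 547, 565 and 510.3 CPM in hyperoxia. The groups did not overlap, and the difference was small, at a log2FC of 0.28 (SE 0.0581, adjusted p = 0.0037). Robo2 (ENSMUSG00000052516, chromosome 16, 73891839 to 74411825), a Slit receptor best known from neurons and kidney, was counted at 3.61, 2.67, 2.91 and 2.82 CPM in normoxia and at 9.19, 10.2, 6.70 and 8.10 CPM in hyperoxia. These groups were apart, and hyperoxia 3 was the lowest of its group (log2FC 1.51, SE 0.165, adjusted p = 5.96e-05). Robo1 (ENSMUSG00000022883, chromosome 16, 72308306 to 73046095), the Slit receptor that ECs share with other cells, was counted at 2.63, 1.99, 1.96 and 2.71 CPM in normoxia and at 4.62, 6.46, 3.38 and 6.16 CPM in hyperoxia. The groups did not overlap, with hyperoxia 3 again lowest and a log2FC of 1.15 (SE 0.229, adjusted p = 0.0028). With the alveolar epithelial markers in the model the log2FC values were 0.64 (SE 0.365) for Robo2 and 0.02 (SE 0.560) for Robo1, below those without the covariate, while those of Robo4 (0.57, SE 0.141, adjusted p = 0.09) and Robo3 (2.13, SE 0.575, adjusted p = 0.116) were above. Robo3, which lies next to Robo4 (37415669 to 37433246) on the other strand, was also higher, with a log2FC of 0.91 (adjusted p = 0.016).

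Netrin receptors of the Unc5 family were higher for all 3 tested members. With the alveolar epithelial markers in the model none of the 3 passed the threshold. The log2FC was then 0.64 (SE 0.186) for Unc5b, 0.31 (SE 0.183) for Unc5a and -1.33 (SE 0.648) for Unc5c. With the fibroblast and mural markers instead, Unc5b passed it (log2FC 0.58, adjusted p = 0.0179) and Unc5a and Unc5c did not. Unc5b (ENSMUSG00000020099, chromosome 10, 60762593 to 60831581), the family member of ECs, was the most abundant, at 28.4 ± 1.96 and 41.9 ± 2.74 FPKM. It was counted at 168.1, 189, 168.2 and 192 CPM in normoxia and at 241, 273, 259.9 and 279 CPM in hyperoxia. The groups did not overlap, with a log2FC of 0.56 (SE 0.0637, adjusted p = 8.11e-05). Unc5a was higher by a smaller amount (21.5 ± 1.16 and 25.6 ± 0.418 CPM, log2FC 0.25, adjusted p = 0.00985). Unc5c (ENSMUSG00000059921, chromosome 3, 141465216 to 141834924) was counted at 2.20, 1.14, 1.23 and 0.884 CPM in normoxia and at 3.94, 3.74, 1.55 and 3.22 CPM in hyperoxia. Hyperoxia 3 lay among the normoxia libraries, and the log2FC was 1.19 (SE 0.346, adjusted p = 0.0205). The Unc5c call was lost when normoxia 2, normoxia 4, hyperoxia 1 or hyperoxia 2 was left out (adjusted p of 0.0522 to 0.0601). Of the other netrin receptors, Dcc had no count in any library, and Neo1, the gene of neogenin, rose from 7.67 ± 0.795 to 11.9 ± 2.74 CPM (log2FC 0.63, adjusted p = 0.0148).

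**Figure D3:**
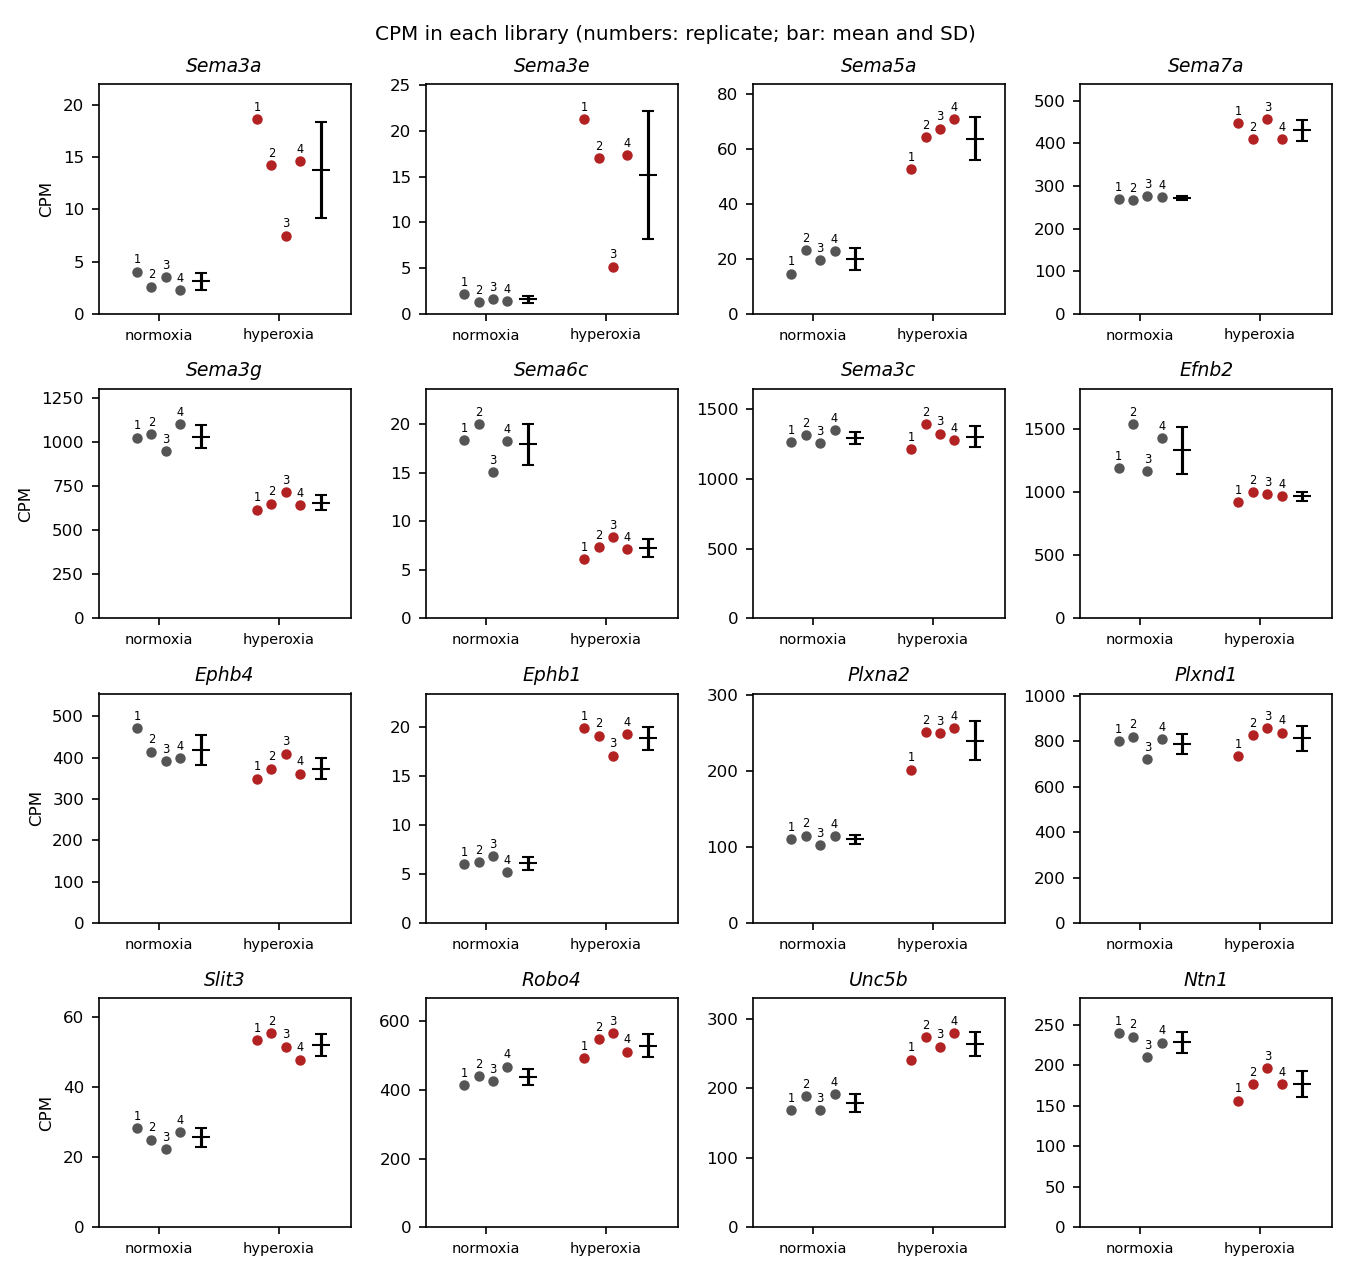
CPM of 16 guidance genes in each library, with the replicate number above each point and a bar for the mean and SD of 4 libraries, on linear axes that start at 0. Hyperoxia 3 is the lowest hyperoxia point for Sema3a (7.50 CPM) and Sema3e (5.15 CPM) and not for Sema5a, Sema7a, Plxna2, Robo4 or Unc5b, and the groups overlap for Sema3c, Ephb4 and Plxnd1.

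The size and direction of the changes differed between classes of abundance, which was not tested. Of the 23 tested members with a mean under 10 CPM, 12 were higher, 2 were lower and 8 were past the fold threshold, and among all genes of that class 15.2% were higher, 8.22% were lower and 12.3% were past the fold threshold. Between 10 and 100 CPM, 8 of 15 members were higher, 1 was lower and 4 were past the fold threshold, against 19.3%, 21.0% and 3.72% of all genes. Above 100 CPM, 6 of 19 were higher and 6 lower, against 24.7% and 29.4%. Of these 19 members 1, Plxna2, was past the fold threshold, against 2.38% of all genes of that class. The 19 abundant members had a median log2FC of 0.01, against -0.03 for all genes of that class. That of the 23 scarce ones was 0.79, against 0.04. Among the scarce members past the fold threshold, Sema4f and Epha7 passed the filter on low counts only through their hyperoxia libraries. Their highest normoxia libraries were at 0.285 and 0.512 CPM. Such a filter favours rises among scarce genes.

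Hyperoxia 3 had the least alveolar epithelial and mural RNA of its group. It also had the lowest aerocyte marker sum (8001 CPM, against 8515 to 8917) and the highest general capillary marker sum (9688 CPM, against 8479 to 9064). It was the lowest hyperoxia library for 11 of the 26 higher members (42.3%, against 45.8% of all higher genes). Of the 12 called higher with the fold threshold it was lowest for 9 (75.0%, against 67.2% of all such genes). Among the 9 lower members it was the highest for 5 (55.6%, against 41.4% of all lower genes). It was the lowest for 8 of the 12 higher members under 10 CPM and for 3 of the 14 at or above 10 CPM. The shares over all higher genes of these abundances are not given here, so this split cannot be read as particular to guidance genes. Without hyperoxia 3, 25 members were higher, 8 were lower and 14 passed the fold threshold. With the mean level of the alveolar epithelial markers as a covariate, 5 members were higher, none were lower and 3 passed the fold threshold. By edgeR the 5 were Ephb1 (log2FC 1.24, adjusted p = 0.0454), Plxna2 (1.33, adjusted p = 0.0117), Plxna4 (0.98, adjusted p = 0.0321), Sema5a (2.11, adjusted p = 0.0141) and Sema7a (0.82, adjusted p = 0.0129). That covariate was closely tied to the group (r = 0.937 across the 8 libraries, given as a description), the standard errors were wider, and 31 of the 35 called genes kept their direction. Values of Sema3g (-0.32, SE 0.142), Efnb2 (-0.23, SE 0.248), Ntn1 (-0.04, SE 0.171), Slit3 (0.98, SE 0.222) and Unc5b (0.64, SE 0.186) were not past the threshold in that model. With fibroblast and mural markers as the covariate, 12 members were higher and 4 were lower. The shares of all genes called in these fits are not given here, so the changed counts cannot be read as particular to guidance genes. Both covariates followed the group (r = 0.937 for the alveolar epithelial and 0.837 for the fibroblast and mural markers). These fits therefore cannot tell cell source and exposure apart. How much of each difference came from ECs was not tested.

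**Figure D4:**
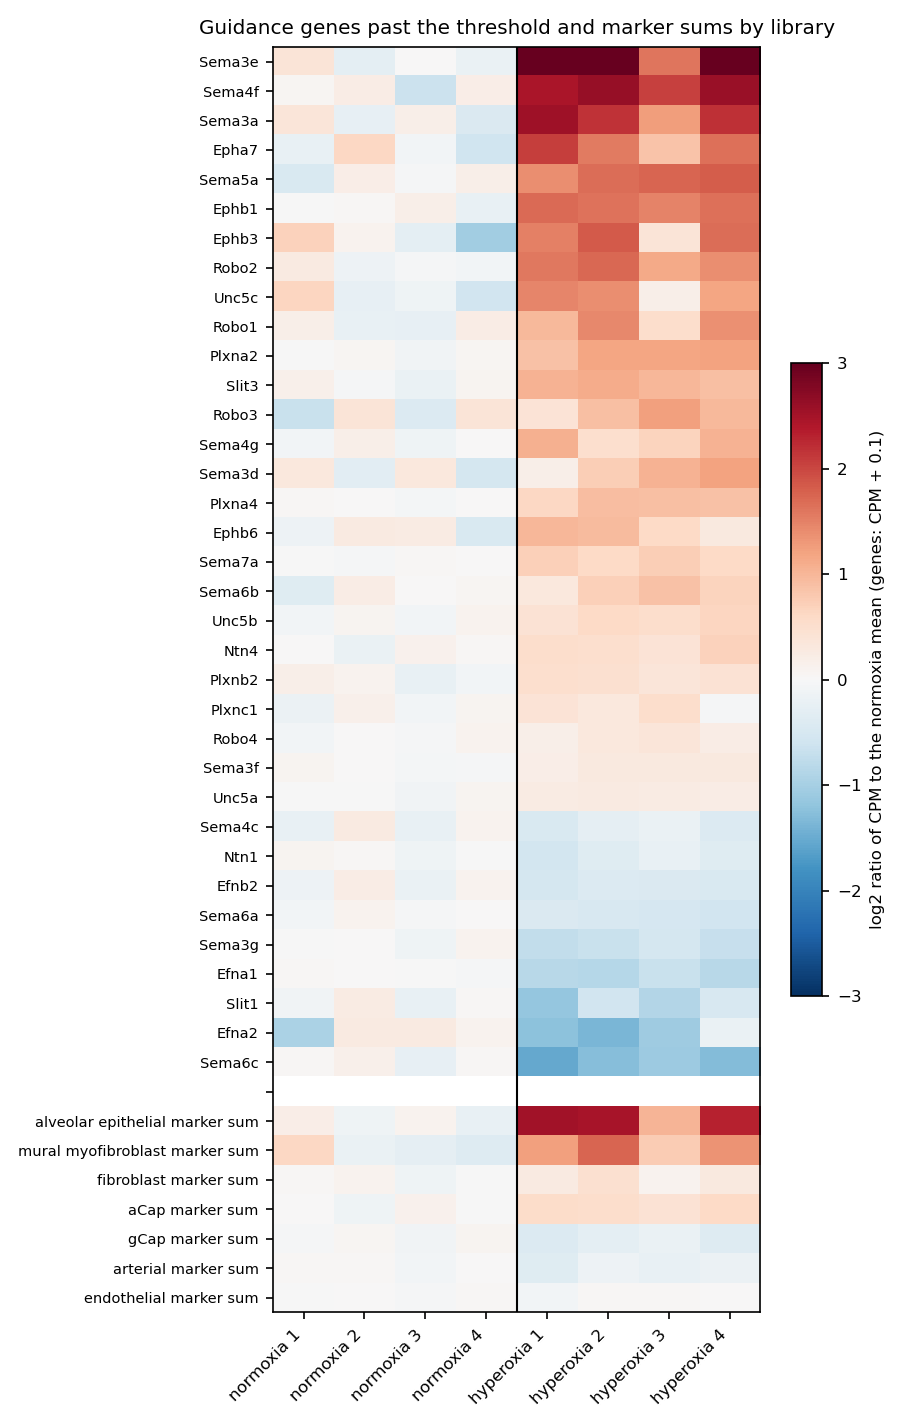
Log2 ratio of CPM in each library to the normoxia mean for the 35 guidance genes past the threshold (with 0.1 CPM added), ordered by fold change, above the summed levels of 7 marker lists, with colours clipped at a log2 ratio of 3. Hyperoxia 3 is paler than the other hyperoxia libraries for the alveolar epithelial and mural sums and for Sema3e, Sema3a, Ephb3 and Unc5c, and as dark as the others for Sema5a, Plxna2 and Sema7a.

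Genes that carry or modify these signals were counted from separate lists. Of 15 co-receptors and modulators 11 were tested, and 7 were higher and 1, Rgmb, was lower, with a median log2FC of 0.20. Of 58 intracellular effectors, such as collapsin response mediators and kinases, 56 were tested, with 22 higher and 10 lower and a median of 0.13. These shares compare with the 18.5% higher and 17.1% lower of all genes tested. Markers of nerve and Schwann cells, which use the same guidance genes, were higher for 1 of 6 tested, Ncam1, and Sox10 had 6 counts over all libraries.

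The 8 members that did not pass the filter were Epha3, Epha5, Epha6, Epha8, Epha10, Ephb2, Ntn5 and Unc5d. They held between 0 and 80 counts over all 8 libraries, with Epha6 at 0, and no library was above 1.48 CPM. A count of 0 in 1 library allows up to 3 counts, or 0.166 to 0.184 CPM, so their absence was not shown. These limits cover counting error only.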

How the data were processed

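RNA-seq was performed on lung ECs of 8 samples, 4 per group. Per the submitters' processing notes, reads were aligned to mm10 with HISAT2 2.0.5 and counted with featureCounts 1.5.0-p3. How strand and reads matching several genes were treated is not given in the sources used here, so reads of overlapping antisense genes cannot be told apart. The authors deposited whole-number counts per gene, which were tested here, and FPKM values, which were used for levels between genes and as an alternative. Symbols, biotypes and coordinates were taken from the deposited tables, and all 65 members had the same coordinates in GENCODE M21 (GRCm38). Counts were tested with edgeR 4.0.16 (R 4.3.3, TMM, filterByExpr, quasi-likelihood test) on all genes with group as the only term, as the study, which used DESeq2, named no covariate. Adjustment of p-values followed Benjamini and Hochberg over 15564 genes. Standard errors follow from the F statistic. The members and marker lists were chosen with earlier results of these data known. Values per library are given for members called with the fold threshold at a mean of at least 1 CPM, for the most abundant member of each family by FPKM, and for 8 genes with known EC roles. Libraries of 1 group differed by more than counting noise (chi-square over its degrees of freedom between 5.11 and 18.5), and each was kept as a replicate. This spread does not show that the libraries came from separate animals. Groups came from the sample titles. Alternatives were other normalizations, filters and tests (DESeq2 1.42.0, limma 3.58.1 on voom values and on log2 FPKM), a block, leaving out each library, marker covariates, protein-coding genes only and an adjusted p of 0.01. The scripts were tested on simulated data with known changes.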

Additional observations from a re-analysis of the deposited data

Results flagged for a closer look

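In 3 of 114 groups of 4 libraries 1 library stood apart from the other 3 by Dixon's criterion, which chance gives in about 1 group in 20, or 5.7 of 114. For Plxna2, hyperoxia 1 lay at 201 CPM and the other hyperoxia libraries at 249.9 to 256 CPM, and for Plxna4 hyperoxia 1 lay at 79.3 CPM and the others at 95.3 to 98.5 CPM. Both values were above every normoxia library, and without hyperoxia 1 the log2 fold changes were 1.19 and 0.90. For Sema3b, hyperoxia 3 lay at 14.0 CPM and the others at 19.5 to 20.6 CPM.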

How the results depend on the processing

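The counts of 26 higher members, 9 lower members and 13 members past the fold threshold stayed within 1.5 times under other normalizations, filters, DESeq2, limma-voom, protein-coding genes only and an adjusted p of 0.01. Leaving out 1 library gave 22 to 26 higher members, 6 to 11 lower members and 11 to 15 past the fold threshold. With limma on log2(FPKM + 1), 3 members passed the fold threshold. The pseudocount shrinks folds, most strongly at low FPKM but also for genes of a few FPKM such as Slit3. With the alveolar epithelial marker covariate, 5 members were higher, 0 were lower and 3 passed the fold threshold, and with the fibroblast and mural marker covariate 12, 4 and 7. The log2 fold change turned with the first covariate for Ephb3 (-1.22), Sema3e (-0.12), Sema4c (0.13) and Unc5c (-1.33) and with the second for Ephb3 (-0.20) and Unc5c (-0.26). The cause was not tested, and the share of all genes called under each alternative is not given here. Of the 35 called members, 28 stayed past the threshold without any single library, and Ephb1, Plxna2, Plxna4, Sema5a and Sema7a kept an adjusted p under 0.05 in each of the 20 alternative fits.

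With the replicate number as a block, 24 members were higher, 10 were lower, including the receptor gene Epha4, and 13 passed the fold threshold. Libraries with the same number did not deviate together (correlations of 0.119, 0.036, -0.125 and -0.140 for numbers 1 to 4), so the numbers were not taken as pairs, and not every library correlated best with its own number. The log2 ratio of Efnb2 to Ephb4 differed by -0.28 between groups on both the CPM and the FPKM scale. Depth limits the members under 1 CPM, which hold few counts in each library.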

Other observations

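Among the other genes of these pathways, all picked here after their values were seen, several of the larger rises were in genes at low levels. L1cam, a cell adhesion molecule that binds neuropilin 1, rose from 2.95 ± 0.460 to 8.05 ± 0.901 CPM (edgeR log2FC 1.45, adjusted p = 4.6e-05). Gpc1, a heparan sulfate proteoglycan that binds Slits, rose from 0.897 ± 0.375 to 2.77 ± 0.812 CPM (log2FC 1.63, adjusted p = 0.0032). Dapk1, a kinase in the death signal of Unc5b without netrin 1, rose from 30.9 ± 1.06 to 68.7 ± 4.74 CPM (log2FC 1.15, adjusted p = 3.99e-07). Dpysl3, a collapsin response mediator, rose from 164 ± 6.09 to 257 ± 2.73 CPM (log2FC 0.65, adjusted p = 1.66e-06). Tiam1, an activator of Rac, fell from 60.5 ± 7.22 to 32.1 ± 3.12 CPM (log2FC -0.91, adjusted p = 4.1e-05), and Rasa1, which binds activated Eph receptors and restrains Ras, fell from 169 ± 5.58 to 132 ± 3.66 CPM (log2FC -0.35, adjusted p = 0.000118). The GTPase genes Rac1, Cdc42 and Rhoa were not past the threshold, with log2FC values of -0.11, 0.15 and -0.05.

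Without the filter on low counts, 2 of the 8 untested members passed the threshold in edgeR. Epha3 (19 counts in normoxia and 61 in hyperoxia) had a log2FC of 1.65 (adjusted p = 0.0169), and Epha8 (19 and 2 counts) had one of -2.95 (adjusted p = 0.0437).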
